A study of Rattus norvegicus with 154 samples.

Results

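S100a8, S100a9, Mmp8 and Fcnb are genes of neutrophils and related myeloid cells, and their transcripts were followed in rat lung after exposure to the vesicant sulfur mustard, which alkylates DNA and proteins. The genes were taken as every probe set that the array's gene table assigns to one of these symbols, which gave 4 probe sets for 4 genes, 1 each, out of 15923 probe sets on the array and 10411 gene symbols in that table. The lung RNA of 77 rats had been hybridised to an Affymetrix rat array, with 2 chips per animal. The dosed animals had received 1, 3 or 6 mg of sulfur mustard (bis-(2-chloroethyl) sulfide) dissolved in isopropyl alcohol. One set of controls (0 mg) had received this vehicle and another saline, and lungs were sampled 30 min, 1 h, 3 h, 6 h or 24 h later. Groups held 3 animals, except for 6 mg at 30 min and 6 mg at 1 h, which held 4. All dosed animals thus also received the alcohol, and the sources used here do not give strain, sex, age, body weight or route. Animals are numbered here within their group by the order of their records, and the labels do not say that animals with equal numbers form pairs. Nothing in the labels says which animals were handled together, and p-values measure the spread between these animals.

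S100a8 and S100a9 encode small calcium-binding proteins that pair to form calprotectin, a major cytosolic protein of neutrophils that monocytes also make. Once released, the pair can act on the receptors Tlr4 and Ager (RAGE). Mmp8 encodes neutrophil collagenase, a matrix protease stored in granules and released when neutrophils are activated. Fcnb encodes ficolin B, a secreted lectin that recognises microbial sugars and can start the lectin pathway of complement, and in mice it is made by myeloid cells of the bone marrow. In the lung, neutrophils wait in the capillary bed and enter the airspaces during injury.

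In the rat genome S100a8 and S100a9 are direct neighbours on chromosome 2, next to S100a7a on one side and Pglyrp4 on the other. Mmp8 lies between Mmp10 and Mmp27 on chromosome 8, and Fcnb between Col5a1 and Olfm1 on chromosome 3. The promoters are shown because these are genes of myeloid cells, where C/EBP and PU.1 factors are known regulators, and because some of them varied together between animals. RefSeq promoter entries (assembly GRCr8, 250 bases before to 50 after the start, 300 bases each) matched 3 of the 4 genes, and they are written 5′ to 3′ on the gene's strand. Capitals mark matches to 3 motifs spelled out after the sequences, searched on both strands, and no 2 matches overlap.
S100a9 chr2:178490573-178490872 (minus strand): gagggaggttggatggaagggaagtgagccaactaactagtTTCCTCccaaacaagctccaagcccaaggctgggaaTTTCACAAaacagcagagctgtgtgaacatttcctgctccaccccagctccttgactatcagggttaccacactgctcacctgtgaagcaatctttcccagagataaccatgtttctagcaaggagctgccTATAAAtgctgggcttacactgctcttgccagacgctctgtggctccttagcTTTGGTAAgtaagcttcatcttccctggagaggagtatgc
Mmp8 chr8:13008640-13008939 (plus strand): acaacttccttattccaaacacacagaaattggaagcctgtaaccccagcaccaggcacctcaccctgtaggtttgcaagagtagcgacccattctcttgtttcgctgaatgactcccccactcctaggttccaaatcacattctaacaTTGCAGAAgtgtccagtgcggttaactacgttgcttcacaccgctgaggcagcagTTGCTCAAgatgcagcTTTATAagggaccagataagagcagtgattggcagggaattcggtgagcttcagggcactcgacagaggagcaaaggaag
Fcnb chr3:31800139-31800438 (minus strand): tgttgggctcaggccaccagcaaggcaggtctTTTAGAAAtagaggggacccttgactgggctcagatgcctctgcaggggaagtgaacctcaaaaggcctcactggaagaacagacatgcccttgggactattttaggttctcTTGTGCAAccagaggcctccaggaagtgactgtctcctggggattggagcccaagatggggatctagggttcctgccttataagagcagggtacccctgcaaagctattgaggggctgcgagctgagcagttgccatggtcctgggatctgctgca
The C/EBP letters TTNCNNAA occurred 2 times in each of the 3 windows, and in 41.3% of all 33469 promoters of this length. The PU.1 letters, GAGGAA, were found in the S100a9 window, there as the reverse complement, and in 27.6% of all promoters. The letters of a TATA box, TATAAA, were found in the S100a9 and Mmp8 windows, in the latter as the reverse complement, and in 14.2% of all promoters. These matches are a description of the letters, and no binding was measured.

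All 4 probe sets passed the filter on low values, which left out the lowest 30% of probe sets by mean and kept 11106. Values are array intensities on the linear scale, the mean of the 2 chips, and intensities of different probe sets cannot be set against each other. S100a9 had a mean intensity of 812.6, at the 96.2nd percentile of all probe sets, and ranged from 147.8 to 2073 over the 77 animals. S100a8 ranged from 41.4 to 765.5 (mean 226.3), Fcnb from 27.05 to 891.3 (mean 212.4) and Mmp8 from 12.3 to 162.4 (mean 44.3). The 2 chips of an animal agreed closely for 3 genes, with a Pearson r across animals of 0.98 for S100a9, 0.97 for Fcnb and 0.96 for S100a8. For Mmp8, with the lowest mean of the 4 probe sets, the r was 0.65 and the chips of 1 animal differed by up to 2.13 on the log2 scale. Mmp8 values thus carry more array noise than those of the other genes.

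Lung identity and other cell markers were checked on the same arrays. The epithelial genes Sftpc (lowest value 4005), Sftpb (2341) and Scgb1a1 (3300) were bright in every animal. Of 20 further genes listed for neutrophil granules, 9 had a probe set of their own, and 4 of these passed the filter on low values. The neutrophil defensin genes Np4 and RatNP-3b had median intensities of 15.5 and 2.8 and Mmp9 one of 15.8, and none of them passed the filter. The label of the 4 genes therefore rests on what is known of them, and not on a full set of neutrophil transcripts in these lungs. In whole lung, fewer cells of a type and less RNA per cell cannot be told apart.

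Fcnb was lower in dosed than in control lungs at 24 h and passed the test at 6 mg, whereas S100a8, S100a9 and Mmp8 passed it at no dose and time. That Fcnb moved there was already known from earlier results of these data. Among the 60 comparisons of a gene with isopropyl alcohol (4 genes, 3 doses, 5 times), the fall of Fcnb at 6 mg and 24 h was the single one past the test (limma, adjusted p under 0.05). Of the 60, 6 had an unadjusted limma p under 0.05. Over all 11106 probe sets, the number with such a p ran from 114 (1 mg at 30 min) to 3392 (6 mg at 6 h) per comparison. At 24 h it was 668 at 1 mg, 619 at 3 mg and 1959 at 6 mg. The share of all 11106 probe sets past the test, in either direction, shows how much else moved in each comparison. For 6 mg it rose from 0% at 30 min and 0.189% at 1 h to 12.9% at 3 h and 18.2% at 6 h, and was 6.73% at 24 h. For 3 mg it was 0% at 30 min, 1 h and 3 h, 1.68% at 6 h and 0.504% at 24 h. For 1 mg it was 0% at 30 min and 1 h, then 0.018% (3 h), 0.009% (6 h) and 0.333% (24 h). Only the 6 mg comparisons from 3 h on, and to a lesser degree 3 mg at 6 h, thus had many calls of any kind, and the doses of a time share their isopropyl alcohol animals.

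**Figure D1:**
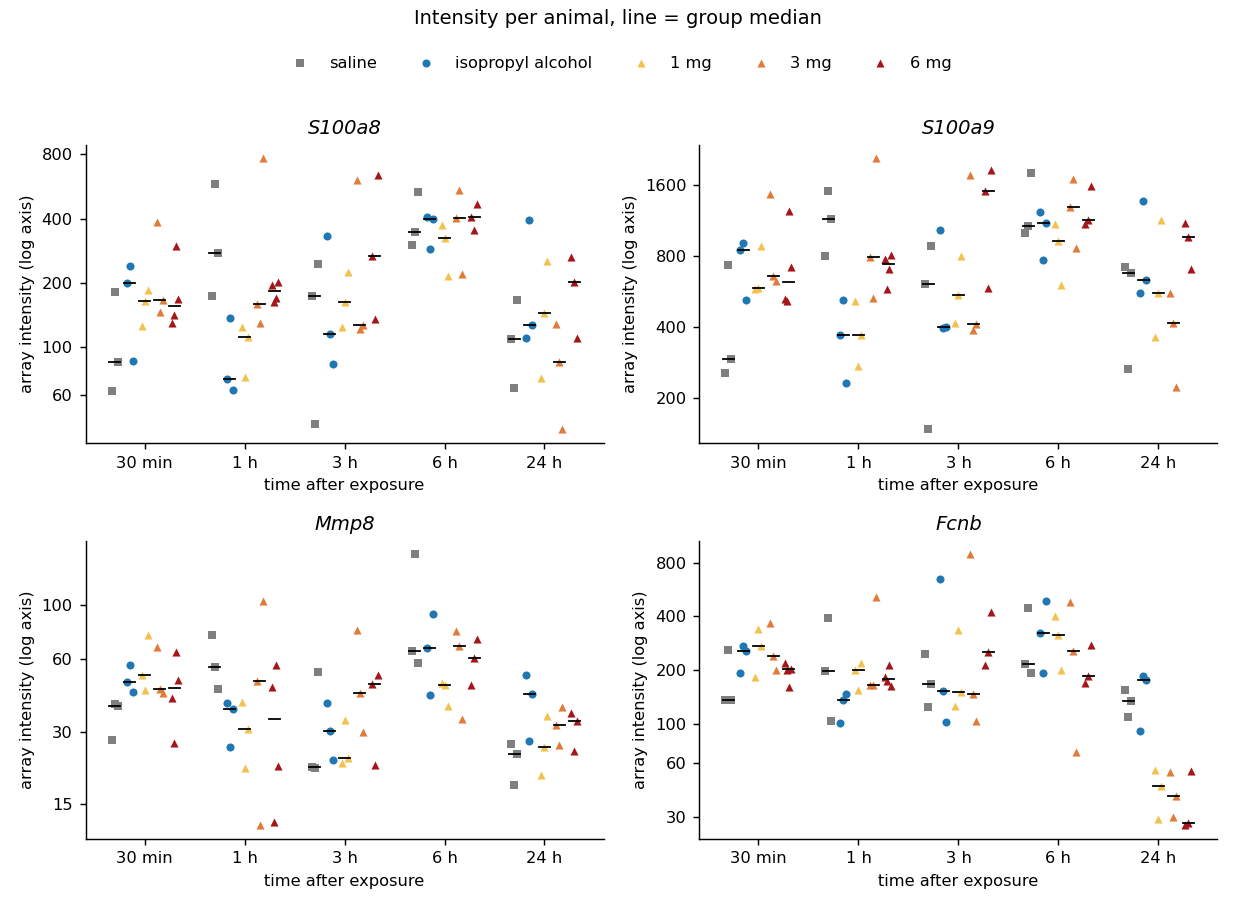
Array intensity (log axis) of each gene in each of the 77 animals, by time after exposure, with squares for saline, circles for isopropyl alcohol, triangles for the 3 doses and a line at the group median. At 24 h the 9 dosed animals lie between 27.05 and 55.2 for Fcnb, below all 6 control animals (91.6 to 184.65), while dosed and control animals as a whole overlap for the other genes.

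The values of Fcnb at 24 h were 155.2, 109.1 and 134.0 in saline and 91.6, 184.7 and 175.0 in isopropyl alcohol. At 1 mg they were 55.2, 29.5 and 44.95, at 3 mg 53.75, 30.0 and 39.3, and at 6 mg 27.05, 27.95 and 54.75. Every one of the 9 dosed animals was below every one of the 6 controls, and the 3 doses overlapped with each other. Taken dose by dose, the dosed and alcohol animals at 24 h did not overlap, in either direction, for 12.4% of all probe sets at 1 mg, 10.8% at 3 mg and 22.9% at 6 mg. These shares are for 3 against 3 animals without saline. The share of all probe sets with all 9 dosed animals below all 6 controls was not computed. No animal of any other group or time was as low: the lowest value among the other 68 animals was 69.8, in a 3 mg animal at 6 h. Ranked by group median over the 25 groups, the 3 dosed groups at 24 h took the last 3 places, and the saline group at 24 h above them was the one place in that order where neighbours did not overlap.

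Against isopropyl alcohol at 24 h, Fcnb fell 3.67-fold at 6 mg, from 150.4 ± 51.2 to 36.6 ± 15.7 (SD, n = 3 each). On the log2 scale the difference was -1.88 ± 0.54 (SE), with a 95% interval of -2.95 to -0.80 and an adjusted p of 0.0198 (limma). Lower calls made up 4.02% of all probe sets in this comparison. At 3 mg the difference was -1.68 ± 0.54 (41.0 ± 11.97 in the 3 animals), and at 1 mg it was -1.64 ± 0.54 (43.2 ± 12.9). Neither passed the test over all probe sets, with limma adjusted p of 0.263 at 3 mg and 0.409 at 1 mg beside unadjusted p of 0.0027 and 0.0033. With the 3 doses averaged, a comparison added after seeing the data, Fcnb was lower by -1.73 ± 0.44 in log2 (limma, adjusted p = 0.0211), where 1.66% of all probe sets passed. This call was lost without isopropyl alcohol animal 2 (-1.56, limma adjusted p = 0.132) or 3 (-1.60, 0.172), and with scan days as a block (-1.67, 0.0839).

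No difference between the doses was detected for Fcnb. Between 6 and 3 mg at 24 h the log2 difference of Fcnb was -0.20, with a 95% interval of -1.27 to 0.88, and between 6 and 1 mg it was -0.23 (-1.31 to 0.84). These intervals leave room for differences between doses of about 1 log2 unit in either direction. Over all probe sets, 1.1% differed between 6 and 3 mg. The linear trend of Fcnb over 0, 1, 3 and 6 mg at 24 h was -0.24 ± 0.08 log2 units per mg (limma, adjusted p = 0.0666), and did not pass where 8.11% of probe sets did. None of the 20 trends of the 4 genes passed, where the shares of all probe sets were 0% for 30 min, 0.477% for 1 h, 12.1% for 3 h and 20.4% for 6 h. Of the 20 trends, 4 had an unadjusted limma p under 0.05. Over all 11106 probe sets, the number with such a p ran from 664 (30 min) to 3498 (6 h) per time.

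The call at 6 mg rested on few animals. It was lost without isopropyl alcohol animal 2 (-1.71, limma adjusted p = 0.0843) or 3 (-1.74, 0.0883) and without 6 mg animal 1 (-1.73, 0.0967) or 2 (-1.73, 0.0915), and on chip B alone (-1.61, 0.0717). The log2 difference stayed between -2.19 and -1.71 over the 6 fits without 1 animal, and between -2.15 and -1.59 over 16 other settings, 14 of which kept the call. Scan days, read from the array files, were checked as a batch. Isopropyl alcohol animal 1, 6 mg animal 1 and 3 mg animal 2 shared their scan days, and there Fcnb was lower by -1.55 in log2 at 6 mg and -1.41 at 3 mg. On another pair of days, 1 mg animal 1 stood -1.62 from isopropyl alcohol animal 2. A further pair of days held saline animal 3 beside dosed animals, which stood at -2.055 for 6 mg, -1.19 for 3 mg and -1.70 for 1 mg. With scan days as a block the 6 mg difference was -1.999 (limma, adjusted p = 0.0266).

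Array quality at 24 h overlapped between dosed and control animals. The log2 ratio of the 3′ to the 5′ GAPDH probe set, which rises as RNA degrades, ran from 0.17 to 1.48 in the 9 dosed and from 0.29 to 1.49 in the 6 control animals, and array medians from 72.75 to 87.5 and from 76.8 to 90.3. With that ratio as a covariate the 6 mg difference of Fcnb was -1.76 (limma, adjusted p = 0.0337).

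**Figure D2:**
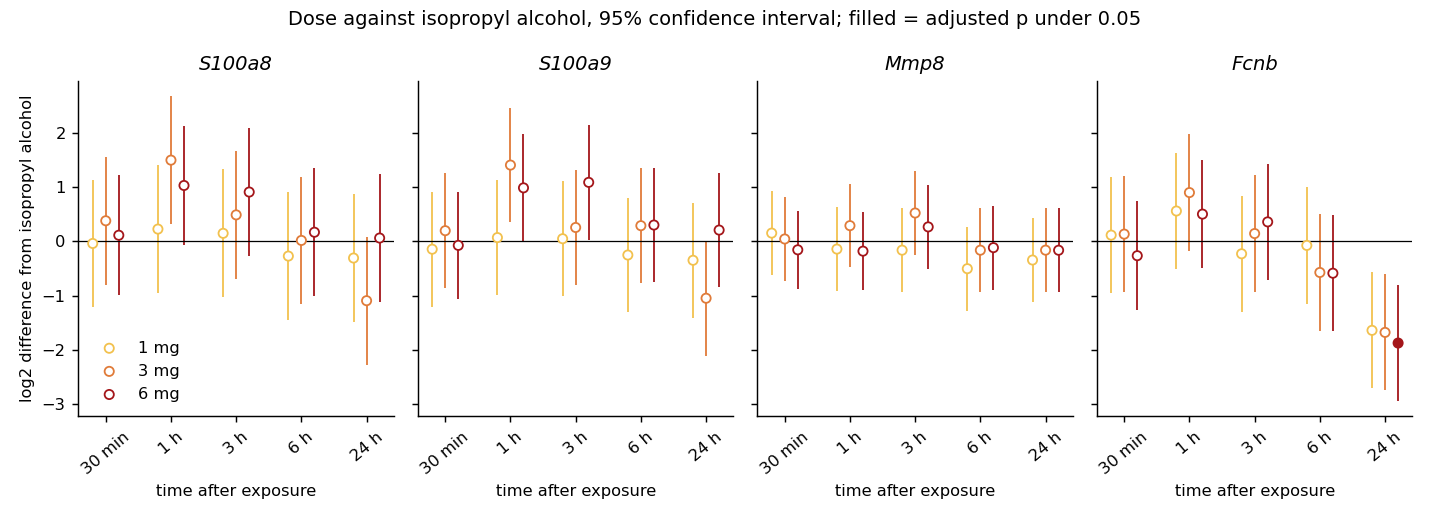
Log2 difference of each dose from isopropyl alcohol of the same time, with the 95% confidence interval of the limma fit, for each gene over 5 times. A filled point passed the test, which holds for Fcnb at 6 mg and 24 h (-1.88), and the 1 and 3 mg points of Fcnb at 24 h lie at -1.64 and -1.68.

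At earlier times Fcnb was not lower in dosed animals beyond the spread. At 6 h the values were 215.2, 443.2 and 193.2 in saline, 320.7, 191.5 and 486.9 in isopropyl alcohol, 402.7, 315.7 and 201.4 at 1 mg, 483.2, 254.3 and 69.8 at 3 mg, and 170.1, 185.4 and 277.1 at 6 mg. All of these groups overlapped, and the log2 difference at 6 mg was -0.59 ± 0.54 (limma, adjusted p = 0.484). The values at 3 h were 247.1, 123.7 and 166.7 in saline, 644.4, 153.6 and 102.2 in isopropyl alcohol, and 214.4, 251.0 and 421.3 at 6 mg. At 1 and 3 mg they were 125.9, 333.3 and 149.95, and 891.3, 147.8 and 103.9. A single animal of the alcohol group and a single one at 3 mg stood far above the others of their groups at that time.

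At 1 h the Fcnb values were 101.2, 135.4 and 147.7 in isopropyl alcohol and 181.8, 173.5, 213.3 and 162.5 at 6 mg. All 4 of the 6 mg animals, and all 3 at 1 mg (155.6 to 217.9) and at 3 mg (165.1 to 514.8), were above all 3 alcohol animals, but saline (196.9, 388.8 and 104.1) overlapped with both. Dosed and alcohol animals of 1 h did not overlap, in either direction, for 7.49% of all probe sets at 1 mg, 6.79% at 3 mg and 10.8% at 6 mg. The log2 difference at 6 mg and 1 h was 0.50 ± 0.50 (limma, adjusted p = 0.679). At 30 min the values ran from 135.6 to 258.4 in saline, from 191.9 to 271.2 in alcohol and from 160.7 to 364.8 over the 10 dosed animals, and overlapped.

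The change of the 6 mg effect on Fcnb over time was tested directly. Between 24 and 3 h the effect differed by -2.24 ± 0.76 log2 units (limma, adjusted p = 0.0618), where 6.32% of all probe sets passed. The difference was -2.38 ± 0.73 between 24 and 1 h (limma, adjusted p = 0.067; 2.44% passed) and -1.29 ± 0.76 between 24 and 6 h (limma, adjusted p = 0.452; 3.35% passed). The F-test over all 5 times gave an adjusted p of 0.107 (limma), where 11.4% passed. None of these passed, so that the fall is not shown to belong to 24 h alone. The 24 to 3 h difference passed without isopropyl alcohol animal 1 of 3 h, the one with 644.4 (-3.004, limma adjusted p = 0.00971), and so did the F-test (limma, adjusted p = 0.0245).

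S100a9 and S100a8 showed no passing difference at any dose and time. At 24 h the S100a9 values were 717.6, 265.6 and 678.8 in saline, 558.7, 1362 and 632.3 in isopropyl alcohol, 361.8, 559.9 and 1132 at 1 mg, 558.0, 417.9 and 224.2 at 3 mg, and 1099, 960.6 and 703.5 at 6 mg. The 6 mg animals lay inside the range of the alcohol animals, which was wide because of animal 2. Their log2 difference was 0.21 with a 95% interval of -0.85 to 1.27 (limma, adjusted p = 0.896). For S100a8 it was 0.06 (-1.12 to 1.24), with values of 110.2, 394.3 and 126.9 in alcohol and 263.4, 202.4 and 110.8 at 6 mg. A rise or fall of about the size seen for Fcnb lies outside these intervals, and smaller changes in either direction lie inside.

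At 3 mg and 24 h S100a8 stood at 128.9, 85.1 and 41.4, which overlapped with alcohol. The S100a9 values at 3 mg were all below those in alcohol, by -1.05 ± 0.53 in log2 (limma, adjusted p = 0.898), and S100a8 stood at -1.10 ± 0.59 (0.976). For 10.8% of all probe sets the 3 mg and alcohol animals of 24 h did not overlap. Saline animal 2 (265.6 for S100a9) reached into the 3 mg range. Between 6 and 3 mg the log2 difference was 1.26 ± 0.53 for S100a9 (limma, adjusted p = 0.358) and 1.16 ± 0.59 for S100a8 (0.543), and neither passed.

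At 3 h S100a9 stood at 1506, 585.3 and 1843 at 6 mg, at 1763, 387.3 and 413.2 at 3 mg, and at 1034, 395.9 and 401.9 in isopropyl alcohol. One alcohol animal exceeded one 6 mg animal, and the log2 difference of 1.09 ± 0.53 (interval 0.03 to 2.15) had an unadjusted p of 0.0441 and an adjusted p of 0.18 in limma. S100a8 at 3 h stood at 267.0, 136.5 and 638.7 at 6 mg and 332.8, 116.2 and 84.1 in alcohol (0.91 ± 0.59). These values overlapped in both genes. In the same lungs 5 of 8 tested genes for neutrophil attractants, growth factors and adhesion were higher at 6 mg and 3 h (median log2 difference 0.94, against -0.05 over all probe sets). Over all probe sets, 12.9% passed there in either direction. Among the 5 were the chemokine genes Cxcl2 (1.48 ± 0.43, limma adjusted p = 0.0146) and Cxcl1 (1.11 ± 0.36, 0.0315) and the cytokine genes Il1b (1.33 ± 0.44, 0.0346) and Il1a (1.05 ± 0.29, 0.01). None of the 4 tested granule genes passed at 6 mg and 3 h. Of 8 tested surface and signalling genes of neutrophils, 2 were higher there and none lower.

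At 1 h the alcohol animals themselves were low. Their S100a9 values were 370.5, 520.6 and 232.8, below all 3 in saline (799.5, 1502 and 1145), and S100a8 stood at 70.9, 136.8 and 63.5 against 174.4, 578.8 and 275.0. Alcohol and saline animals of 1 h did not overlap, in either direction, for 3.92% of all probe sets. The log2 difference of alcohol from saline was -1.63 ± 0.53 for S100a9 and -1.75 ± 0.59 for S100a8, and neither passed (limma, both adjusted p above 0.99). No probe set at all passed in this comparison at 1 h (0%), and the shares at 30 min, 3 h, 6 h and 24 h were 0.027%, 0.009%, 0.018% and 0%. Of the 20 comparisons of alcohol with saline for the 4 genes, none passed and 2 had an unadjusted p under 0.05, which are these. Over all 11106 probe sets, 189 had such a p in limma at 1 h, against 226 (30 min) to 1273 (6 h) at the other times. The 6 mg animals at 1 h, with S100a9 at 779.1, 581.6, 707.7 and 805.4, were above all alcohol animals (0.99 ± 0.50, limma adjusted p = 0.374) and 3 of these 4 below all in saline. For 10.8% of all probe sets the 6 mg and alcohol animals of 1 h did not overlap. At 3 mg and 1 h the S100a9 values were 790.5, 531.8 and 2073, and the S100a8 values 159.0, 130.6 and 765.5, with animal 3 the highest of all 77 for both genes. Their log2 differences from alcohol were 1.41 ± 0.53 and 1.50 ± 0.59, with unadjusted p of 0.0101 and 0.0136 and adjusted p above 0.99 for both (limma). A difference from alcohol at 1 h therefore has another size when saline is the control.

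Array quality varied more at 1 h than at 24 h. The GAPDH 3′ to 5′ log2 ratio was 2.37 in 3 mg animal 2 and 2.48 in 6 mg animal 2 of 1 h, against at most 1.58 in the other animals of the series, and 5 of the 7 arrays whose records call them regenerated were of 1 h. These animals held the lowest Mmp8 values of the series, 12.3 and 12.7. Without 6 mg animal 2 the log2 difference of Mmp8 from alcohol at 1 h was 0.10 in place of -0.18, and without 3 mg animal 2 it was 0.96 in place of 0.29 (limma, none passed). For S100a9 it was 1.08 in place of 0.99 at 6 mg and 1.83 in place of 1.41 at 3 mg, and neither passed.

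At 30 min S100a9 stood at 254.8, 733.0 and 293.2 in saline, 849.6, 910.4 and 519.6 in isopropyl alcohol and 514.5 to 1470 over the 10 dosed animals, which overlapped with alcohol at every dose. S100a8 ran from 62.6 to 239.5 in the 6 controls and from 126.2 to 385.5 in the dosed animals of that time. At 6 h S100a9 ran from 766.3 to 1796 in the 6 controls (median 1089) and from 603.3 to 1690 in the 9 dosed animals (median 1095). Dosed and control animals overlapped for both genes at both times, and no difference of a dose passed.

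No difference of a dose passed for Mmp8, whose intensities were low. At 24 h it stood at 51.15, 27.45 and 42.7 in isopropyl alcohol, at 26.75, 18.1 and 24.25 in saline and at 35.95, 25.05 and 33.2 at 6 mg. The log2 difference at 6 mg was -0.16 with a 95% interval of -0.94 to 0.61 (limma, adjusted p = 0.886). Over the 15 comparisons of a dose with alcohol, Mmp8 differences lay between -0.50 (1 mg at 6 h) and 0.52 (3 mg at 3 h). Other genes of its family moved at 6 mg and 24 h: of 10 tested matrix metalloproteinase and inhibitor genes, 2 were higher and 1 lower. Over all probe sets, 6.73% passed there in either direction. The inhibitor gene Timp1 rose 2.00-fold (1.00 ± 0.17, limma adjusted p = 1.6e-05) and the gelatinase gene Mmp2 rose 1.70-fold (0.77 ± 0.13, 2.68e-05), whereas Mmp16, a membrane-bound member, fell by 0.60 (SE 0.14, 0.00334).

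In animals that had received no sulfur mustard, S100a8 and Mmp8 were lower at 24 h than at 6 h, though not past the test in every setting. S100a8 was highest at 6 h, where the 6 controls (saline and isopropyl alcohol) ran from 288.9 to 535.0 with a median of 371.1. The 6 controls at 24 h ran from 64.75 to 394.3 with a median of 118.5, and those at 3 h from 44.0 to 332.8 with a median of 144.8. Mmp8 in controls ran from 42.45 to 162.4 at 6 h and from 18.1 to 51.15 at 24 h. From 6 to 24 h S100a8 fell by 1.40 on the log2 scale (SE 0.42, limma adjusted p = 0.04) and Mmp8 fell by 1.20 (SE 0.27, limma adjusted p = 0.00612), in a comparison in which 4.07% of all probe sets passed. S100a9 (-0.83 ± 0.37, limma adjusted p = 0.21) and Fcnb (-1.03 ± 0.38, 0.11) did not pass.

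Over all 5 times the F-test on controls passed for Mmp8 (limma, adjusted p = 0.0105) and S100a8 (0.0422), and not for S100a9 (0.115) or Fcnb (0.246). It passed for 9.54% of all probe sets. A single pair of scan days, the 13th with the 14th, held 3 animals, all of them 6 h or 24 h controls, and without them, or with scan days as a block, neither gene passed. The log2 difference from 6 to 24 h without them was -1.29 for S100a8 (limma, adjusted p = 0.222) and -0.91 for Mmp8 (0.148). The 9 dosed animals at 6 h had S100a8 values of 216.8 to 542.4, with a median of 374.1, inside the range of the controls for all but 3 animals. The S100a8 fall rested on few animals: in limma fits that each left out 1 control it lost the call in 8 of 12. These were the fits without isopropyl alcohol animal 1 (-1.22, adjusted p = 0.108) or 3 (-1.29, 0.0755) of 24 h, without saline animal 1 (-1.41, 0.0722) or 2 (-1.24, 0.0944) of 24 h, without alcohol animal 1 (-1.36, 0.0832) or 3 (-1.37, 0.11) of 6 h, and without saline animal 2 (-1.44, 0.0576) or 3 (-1.29, 0.0635) of 6 h. With the S100a9 level as a covariate the S100a8 difference was -0.53 (limma, adjusted p = 0.0231). The Mmp8 difference passed in all 12 such fits.

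The 4 genes varied between animals of equal treatment, and S100a8 and S100a9 did so together. After group means were removed, their log2 values correlated at a Pearson r of 0.95 and a Spearman rho of 0.95 over 77 animals (permutation p = 1e-05, the smallest that 100000 resamples can give), and r was 0.94 without the 2 animals farthest from the median. Within the 5 largest pairs of scan days, of 8 to 16 animals, r ran from 0.84 to 0.97. The other 5 pairs of genes had r between 0.50 (S100a8 with Mmp8) and 0.59 (S100a8 with Fcnb) and rho between 0.45 and 0.52. Their permutation p lay between 7e-05 and 0.00057, and with Benjamini-Hochberg adjustment over the 6 pairs the highest was 0.00057. Between S100a8 and Mmp8, r was -0.03 in 1 of these pairs of scan days (9 animals) and 0.47 to 0.77 in the other 4. Genes of one array share its scaling, which can add to such correlations.

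**Figure D3:**
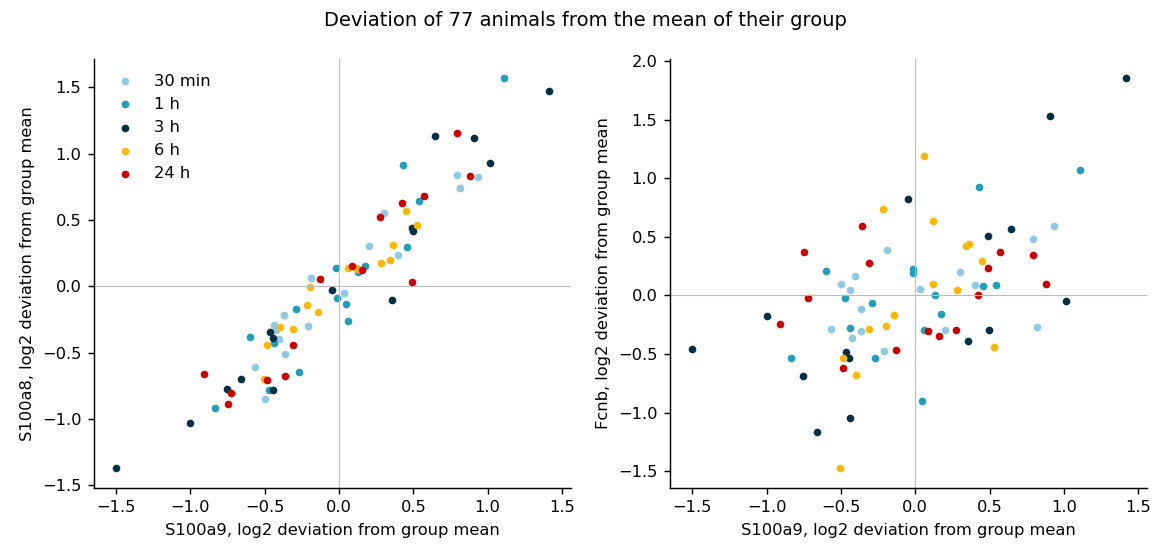
Deviation of each of the 77 animals from the mean of its group, in log2 units, for S100a8 against S100a9 (left) and Fcnb against S100a9 (right), coloured by time. The points for S100a8 lie close to a line (r = 0.95), and those for Fcnb scatter widely (r = 0.54).

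The fall of Fcnb at 24 h was set against the other 3 genes within animals. The log2 distance of Fcnb from Mmp8 changed by -1.51 between the 3 alcohol and the 9 dosed animals at 24 h (two-sided exact permutation p = 0.0182), that from S100a9 by -1.34 (exact p = 0.0455) and that from S100a8 by -1.29 (exact p = 0.0818). The smallest p this design allows is 0.0091. Adjusted over these 3 comparisons, which were chosen after seeing the values and average over doses, the p values were 0.0546, 0.0682 and 0.0818, and none passed 0.05. With the S100a9 level of each animal as a covariate, the 6 mg difference of Fcnb at 24 h was -1.99 (limma, adjusted p = 0.0026).

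Other genes of neutrophils did not share one direction at 24 h. At 6 mg 6.73% of all probe sets passed there, with lower calls in 4.02%. None of the 4 tested granule genes passed at 6 mg (median 0.23, against -0.01 over all probe sets). Their summed intensity was 573.4 to 790.1 in alcohol, 515.2 to 890.3 in saline and 792.6 to 1216 at 6 mg, so that 6 mg overlapped with saline. The brightest of the 4 by mean over all animals, Lcn2 (527.4), weighs most on average in this sum. Lcn2, which encodes an iron-scavenging protein of granules that lung epithelium also makes, stood at 450.7, 356.5 and 208.2 in alcohol and at 914.8, 706.6 and 393.3 at 6 mg, with overlap. Of 8 tested surface and signalling genes 1 was higher and 1 lower. Il1r2, the decoy receptor for interleukin-1 on neutrophils and monocytes, was at 105.0, 81.1 and 70.4 at 6 mg, above every other animal of that time (at most 38.7), and rose 3.11-fold (1.64 ± 0.39, limma adjusted p = 0.00355). Cxcr4, a receptor that retains leukocytes in the marrow and that lymphocytes carry too, fell by 0.88 (SE 0.15, limma adjusted p = 1.79e-05).

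Markers of other cells also changed at 6 mg and 24 h, in both directions. Lower calls made up 4.02% of all probe sets there, and calls in either direction 6.73%. Of 8 tested monocyte genes 2 were lower at 6 mg and none higher. Ly6c fell by 1.07 (SE 0.20, limma adjusted p = 9.6e-05) and Plac8, a gene of monocytes and other leukocytes, fell by 1.03 (SE 0.28, 0.0139), while Cd14, Lyz2 and Vcan did not pass. The summed intensity of the 8 was 7337 to 11058 in alcohol and 6927 to 9283 at 6 mg, and overlapped, with the bright Lyz2 carrying most of it. Plac8 was also lower at 3 mg (-1.15 ± 0.28, limma adjusted p = 0.0344) and did not pass at 1 mg (-0.34 ± 0.28, 0.846). Fcnb was low in all 3 animals at 1 mg and at 3 mg, but passed at neither dose. At 1 mg Plac8 stood at 688.8, 477.6 and 585.2, within the range of the 6 controls (513.3 to 951.2) save for 1 animal.

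Of 8 tested T and NK cell genes, 7 were lower at 6 mg, 4 at 3 mg and 1 at 1 mg, with a summed intensity of 761.3 to 823.3 in alcohol, 556.6 to 707.0 at 1 mg, 418.1 to 434.0 at 3 mg and 240.6 to 321.9 at 6 mg. The list named for B cells held 2 tested genes, Cd79b and Cd74, and both were lower at 6 mg. Cd79b stood there at 2.4, 2.9 and 6.6, under the 7 that was added before taking logs. Cd74 was bright (mean 3030 over all animals), and whether it marks B cells in these lungs was not tested. Over all probe sets at 24 h, 6.73% passed at 6 mg, 0.504% at 3 mg and 0.333% at 1 mg, in either direction. None of the 4 tested macrophage genes passed at any dose at 24 h. The T and NK sums of the 3 doses did not overlap, while the Fcnb values of the 3 doses overlapped. A sum over 8 genes and the value of 1 probe set are unlike measures, so these overlaps cannot be set against each other. Of 5 tested red cell and platelet genes 1 was higher at 6 mg and none lower: Pf4, which encodes a platelet chemokine, rose 2.01-fold (1.01 ± 0.26, limma adjusted p = 0.00966), while the red cell genes Alas2 (1.44 ± 0.62, 0.181) and Hbb (1.27 ± 0.63, 0.28) did not pass. The summed intensity of the 5 was 1822 to 1990 in alcohol and 2144 to 6249 at 6 mg. The bright Hbb (mean 3615 over all animals, against 235.7 for Pf4, the next brightest) weighs most in this sum, and it did not pass. Of 7 tested lung epithelium and endothelium genes 1 was lower, the water channel gene Aqp5 of alveolar epithelium, which fell by 0.93 (SE 0.19, limma adjusted p = 0.000657), and their sums overlapped (16988 to 26065 in alcohol and 17338 to 21864 at 6 mg). The part of any of these cells in the change of Fcnb was not tested.

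**Figure D4:**
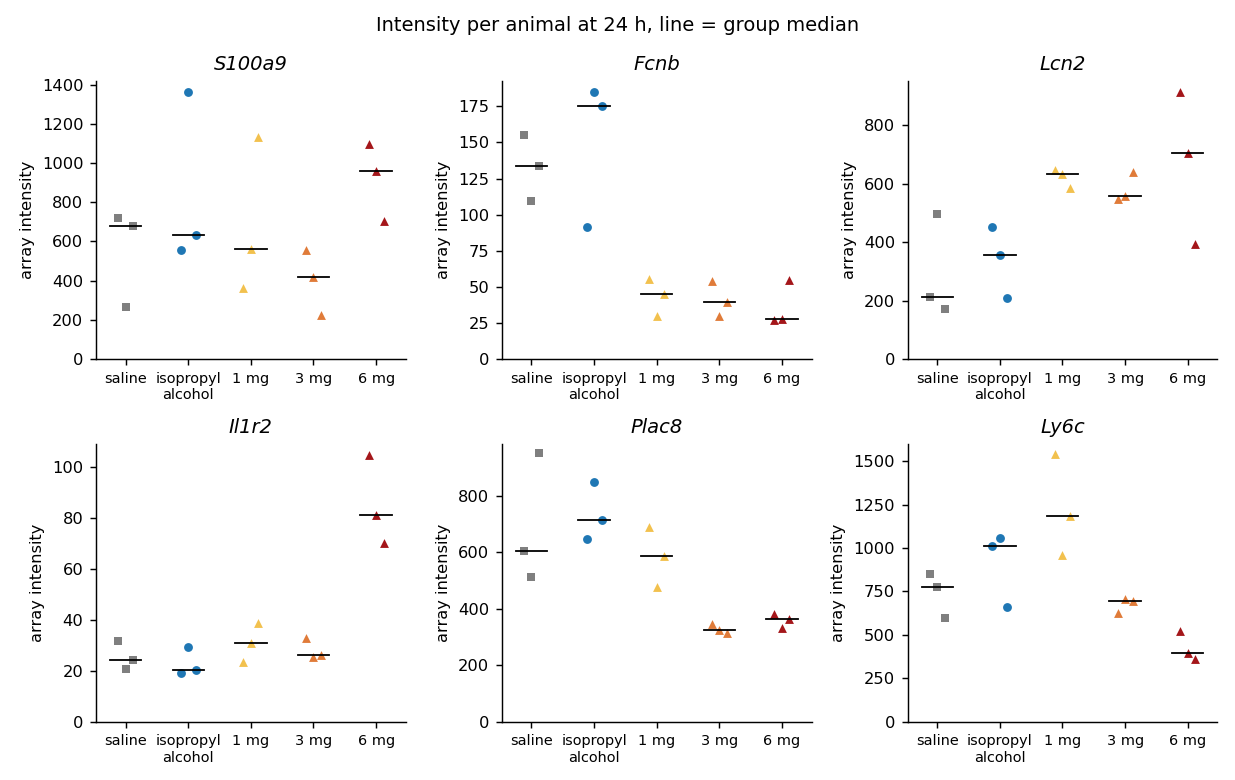
Array intensity (linear axis from 0) at 24 h in each animal of the 5 groups, with a line at the group median, for S100a9, Fcnb, the granule gene Lcn2, the receptor gene Il1r2 and the monocyte genes Plac8 and Ly6c. Fcnb is low at all 3 doses (27.05 to 55.2), Il1r2 is high at 6 mg alone (70.4 to 105.0), and S100a9 overlaps between groups.

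Over the 77 animals the genes whose levels were most like each of the 4 were listed as a description, with the 4 themselves left out of the ranking. For S100a8 and S100a9 it was Il1r2 (r = 0.79 and 0.74), followed by Pglyrp1, an antibacterial granule gene (0.71 and 0.68). For Mmp8 it was Glrx, which encodes glutaredoxin (0.73), followed by the chemokine receptor gene Ccr1 (0.68). Fcnb was most like Lypd8l1 (0.87), Plac8 (0.80) and Coro1a, which encodes an actin-binding protein of leukocytes (0.80). After group means were removed, Il1r2 remained first for S100a8 (0.77) and S100a9 (0.75) and Lypd8l1 for Fcnb (0.84), whereas Socs3, an inhibitor of cytokine signalling, came first for Mmp8 (0.70).

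At 24 h Lypd8l1 stood at 76.2, 65.5 and 74.8 in alcohol and at 44.4, 55.4 and 68.5 in saline. It was at 33.9, 18.1 and 41.0 at 1 mg, 37.1, 16.4 and 24.8 at 3 mg, and 42.8, 30.8 and 38.8 at 6 mg. As for Fcnb, all 9 dosed animals were below all 6 controls. Coro1a ran from 130.4 to 246.4 in the dosed and from 331.4 to 376.4 in the control animals. The share of all probe sets with such a separation of 9 from 6 animals was not computed. Lypd8l1 and Coro1a were picked for their likeness to Fcnb over animals that include these, so their separation at 24 h is not a separate observation. These likenesses were found from the same values, and all of the arrays enter both sides of each.

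The receptors and relatives of these proteins were read from lists. Of 4 tested receptor genes of calprotectin (Tlr4, Ager, Bsg and Cd36) none passed at 6 mg and 24 h or 6 h, and at 3 h Tlr4 fell by 0.55 (SE 0.18, limma adjusted p = 0.0349). At 6 mg and 3 h 12.9% of all probe sets passed. Of 9 other S100 genes, 1 was higher at 6 mg and 6 h, S100a10 (0.80 ± 0.19, limma adjusted p = 0.00163), and none at 24 h. Over all probe sets, 18.2% passed at 6 mg and 6 h and 6.73% at 24 h, so that 1 of 9 does not set these genes apart. Of 7 tested genes of the lectin complement pathway, among them the ficolin gene Fcna and the lectin gene Mbl1, none passed at either time, with a median of -0.26 at 24 h against -0.01 over all probe sets.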

How the data were processed

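Intensities of 15923 probe sets on 154 arrays (77 rats, 2 chips each) were taken as the authors deposited them, on a linear scale. The authors had scaled each array to a 2% trimmed mean of 150, which was found by recomputing it from the table. The program that summarised the probes is not given in the sources used here. Scan days (17, which the 2 chips of an animal join into 12 pairs) are as recorded per the file headers. No further scaling was applied, and array medians ran from 67.7 to 100.1. Log2 was taken after adding 7, which is the table's 10th percentile and shrinks the folds of dim probe sets. The logs of both chips were averaged, so that animals were the replicates. Leaving out 57 control probe sets and the lowest 30% by mean kept 11106.

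A model with 25 group means was fitted in limma 3.58.1 (R 4.3.3), two-sided, with Benjamini-Hochberg adjustment over all 11106 probe sets in each comparison and a threshold of 0.05. SD is of intensities, and SE and intervals are of the model. Permutation tests used scipy 1.17.1. The number of arrays limits the precision. The fit was tested on simulated data. The 4 genes, the lists and the rule for naming genes (all 4 genes, up to 4 passing genes of a list by smallest adjusted p at 6 mg and 6 or 24 h, and the 5 genes most alike) were chosen with earlier results of these data known. List genes that did not pass, those named at 3 h or in other comparisons, and Lypd8l1 and Coro1a at 24 h, were named after their values were seen. Alternatives were tried for offset, floor, filter, normalization, chip, array weights, scan days, control group, variance prior and animals left out. Chosen after seeing the data were the S100a9 and GAPDH covariates, leaving out the animals of 1 scan day pair, the average over doses, and further differences between times, doses and genes. A RefSeq table of GRCr8 gave names, neighbours and promoters.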

Additional observations from a re-analysis of the deposited data

Results flagged for a closer look

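In 6 cases every animal of a group moved one way against its control at one time and the other way at another time. The difference between the times was then tested with limma, as a comparison added after seeing the data, and none passed. Groups of 3 often fail to overlap: over 20 comparisons this held for 12.8% of all probe sets and for 15 of the 80 cases of the 4 genes (18.8%). For Fcnb the doses lay above isopropyl alcohol in every animal at 1 h and below it in every animal at 24 h, with a change from 1 to 24 h of -2.20 at 1 mg (limma, adjusted p = 0.895), -2.58 at 3 mg (0.354) and -2.38 at 6 mg (0.067). Of all probe sets, 0.513% (1 mg), 0.405% (3 mg) and 0.864% (6 mg) failed to overlap in opposite directions at these times. The 3 doses share their alcohol animals, so that these are not separate observations. For S100a9 at 3 mg the change from 1 to 24 h was -2.46 (limma, adjusted p = 0.443). For Mmp8 the alcohol animals were above saline at 30 min, below it at 1 h and above it at 24 h, with changes of -1.11 from 30 min to 1 h and 1.19 from 1 to 24 h (limma, both adjusted p above 0.99), and 0.252% and 0.054% of all probe sets had such a reversal. The alcohol animals of 1 h enter all 6. No animal stood apart by Dixon's test in the 8 sets of 4 values tested.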

How the results depend on the processing

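Of 184 differences between groups tested for the 4 genes, 4 passed the main settings, and none of these changed sign under any alternative. Of the 180 that did not pass, 6 passed in at least 1 alternative and 115 changed sign in at least 1. The fall of Fcnb at 6 mg and 24 h kept its call in 14 of 16 settings, and lost it on chip B alone (-1.607, limma adjusted p = 0.0717) and without the 3 animals of 1 scan day pair, the 13th with the 14th (-1.74, 0.0766). Leaving out 1 animal at a time it ran from -2.19 to -1.71. The average of the doses lost its call with scan days as a block (-1.67) and without those animals (-1.60), and ran from -2.04 to -1.56. The 3 mg difference passed with only the 24 h groups fitted (-1.68). The Fcnb trend per mg at 24 h passed with an offset of 1 (-0.26), a floor of 20 (-0.26), chip A alone (-0.26), array weights (-0.22), both controls (-0.23), the S100a9 covariate (-0.25) and only that time (-0.24), and ran from -0.28 to -0.21 with 1 animal left out. The Fcnb effect at 6 mg between 24 and 3 h passed with an offset of 1 (-2.44), a floor of 20 (-2.45), the lowest 50% filtered (-2.24), chip A alone (-2.57) and both controls (-2.34), and ran from -3.004 to -1.72, while its F over times ran from 2.44 to 4.93. For S100a8 in controls from 6 to 24 h the call was lost with no filter (-1.40), chip A alone (-1.34), the scan day block (-1.396), the GAPDH covariate (-1.42) and without those 3 animals (-1.29), with a range of -1.69 to -1.22. For Mmp8 it was lost with the block (-0.91) and without those animals (-0.91). The F over times in controls lost its call for S100a8 with no filter (4.40), chip A (4.28), chip B (4.45), the block (2.99), the GAPDH covariate (4.42) and without those animals (2.97), and for Mmp8 with the block (3.43), the S100a9 covariate (3.93) and without those animals (3.13). With 1 animal left out it ran from 3.14 to 5.25 for S100a8, passing in 65 of 77 fits, and from 4.14 to 7.83 for Mmp8, passing in 76 of 77. The correlation of S100a8 with Mmp8 was -0.0295 within 1 pair of scan days. The cause of these changes was not tested. No paired analysis was possible because the labels give no pairs: each animal has a number of its own that no animal of another group shares. At every time these numbers run on from group to group, often in cycles through the groups. At 24 h the saline, isopropyl alcohol, 1 mg and 6 mg animals that are numbered equally here fall in the same cycle. Nothing in the labels says that such runs mark a litter, day or batch. A fit with the runs as blocks was not made, so their effect was not tested. The runs also do not follow time throughout. The number of 6 mg animal 1 of 3 h lies among those of the 6 h animals. That of 3 mg animal 3 of 24 h lies among those of the 30 min animals. The chips of an animal agreed least for Mmp8, which limits its values.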
